A study of Mus musculus with 8 samples.

Results

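The genes described here are 10 actin genes and actin regulators, Actb, Tmsb4x, Tmsb10, Pfn1, Cfl1, Cotl1, Arpc1b, Coro1a, Capg and Lcp1, of the 31053 genes in the deposited count table, of which 8930 had enough counts to be tested. They were measured by bulk RNA-seq in brown adipose tissue (BAT) of 4 WT and 4 ATGLKO mice. ATGLKO mice, also called Ucp1Δ/Δ, carry a floxed Pnpla2 gene, which encodes the lipase ATGL, and a Cre recombinase under the Ucp1 promoter, so that deletion is directed to brown adipocytes and other BAT cells keep the gene. The labels give C57BL6/J and an age of 10 weeks for every mouse, whereas the study's legend gives a younger age, and no allele is named for the WT mice. The labels name the stromal vascular fraction as the cell type and BAT as the tissue, and the study's legend names BAT. The genes were selected on the same genotype contrast, by hand and with its results known, because Cotl1 ranked 6 of 8930 genes by p-value. Their differences between genotypes are therefore given as a description, without a test.

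Actin exists as single subunits, or monomers, and as filaments that grow at one end and are taken apart at the other. Monomer-binding proteins such as the thymosins and profilin hold or deliver subunits, the Arp2/3 complex starts branches, capping proteins stop growth, bundling proteins tie filaments together, and proteins of the cofilin family and coronins turn filaments over. Leukocytes use this machinery to crawl and to engulf particles. Some of the 10 genes, such as Coro1a and Lcp1, are known mainly from blood cells, whereas Actb, Pfn1 and Cfl1 are used by nearly every cell. In bulk tissue, more cells of a type and more RNA per cell cannot be told apart.

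Total counts were between 2017697 and 3115956 per mouse, and mitochondrially encoded genes took 38.4% to 45.6% of them. Values are given as CPM, read counts divided by the library size after TMM scaling, on which 3 counts correspond to 0.933 to 1.53 CPM, a floor that covers counting error only. Pnpla2 was at 2913 ± 191 CPM in WT and 474 ± 59.2 CPM in ATGLKO mice (SD, n = 4 each), so the libraries matched their labels. In edgeR's quasi-likelihood test, with p-values adjusted over all tested genes by the method of Benjamini and Hochberg, 1191 genes were called higher and 681 lower in ATGLKO at an adjusted p under 0.05, so that 63.6% of the calls were higher. Scaling by total counts alone raised that share to 78.5%. Adipocyte transcripts were abundant in every mouse, with 9 brown adipocyte markers summing to 9031 to 20727 CPM, so the libraries held adipocyte RNA although the labels name the stromal vascular fraction. Skeletal muscle markers varied widely within both genotypes, from 15 to 1177 CPM in WT and from 46.8 to 1552 CPM in ATGLKO mice, and their part in the results was not tested.

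The windows from 250 bases before to 50 bases after the annotated starts of the 10 genes (RefSeq, GRCm38.p6) were searched for 4 short motifs. The motifs were chosen after the sequences had been seen. The table held 12 windows for 8 of the genes, leaving out Cotl1 and Actb. GGAAGT, the core bound by ETS-family factors, was found on either strand in 5 of the 12 windows and in 23.8% of all 32851 windows. The 5 windows came from 5 of these 8 genes, and no share by gene was computed over all genes. The 5 stretches are shown 5′ to 3′ on the gene's strand, with the match in capitals.
Arpc1b, chr5:145114248-145114277, plus strand: ccccgcccacgaGGAAGTggctgcggcgct
Pfn1, chr11:70654617-70654646, minus strand: gggggaggagcaGGAAGTggcggtgcgagg
Cfl1, chr19:5490417-5490446, plus strand: tcctcggacttcACTTCCcgtcggcccgcg
Capg, chr6:72549423-72549452, plus strand: agtggcgaagagGGAAGTtagaagctagct
Lcp1, chr14:75130944-75130973, plus strand: ccgccccccaacACTTCCccacccccccgc
In Arpc1b and Pfn1 the match began 4 and 16 bases downstream of the annotated start, and in Cfl1, Capg and Lcp1 it began 26, 212 and 167 bases upstream of it. The start used for Capg is an internal one, and its stretch lies within the gene's full span, which begins at chr6:72544391. In Cfl1 and Lcp1 the capitals are the reverse complement of the motif. The GC box GGGCGG, on either strand, was found in 10 of the 12 windows, against 35.7% of all windows. These 10 windows came from all of the 8 genes but Capg, and no ETS match overlapped a GC box. Neither TATAAA nor a CArG box, the site of serum response factor, was found in any of the 12 windows, against 13.6% and 1.63% of all windows. A match describes the sequence and does not show that a factor binds there.

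All 10 genes passed the filter on low counts, and in all 10 every ATGLKO mouse was above every WT mouse. Of all tested genes, 14.4% showed that order. All 10 were also called higher, against 13.3% of all tested genes, and none was called lower, against 7.63%. These counts follow from how the genes were chosen, and nothing is read from them. Only 4 of the 10, Actb, Tmsb4x, Cfl1 and Arpc1b, reached the filter's 4.22 CPM, there of the unscaled library, in every WT mouse, and the others passed through the ATGLKO mice. The median log2 fold change (log2FC) over the 10 was 1.66, against -0.01 over all tested genes.

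**Figure D1:**
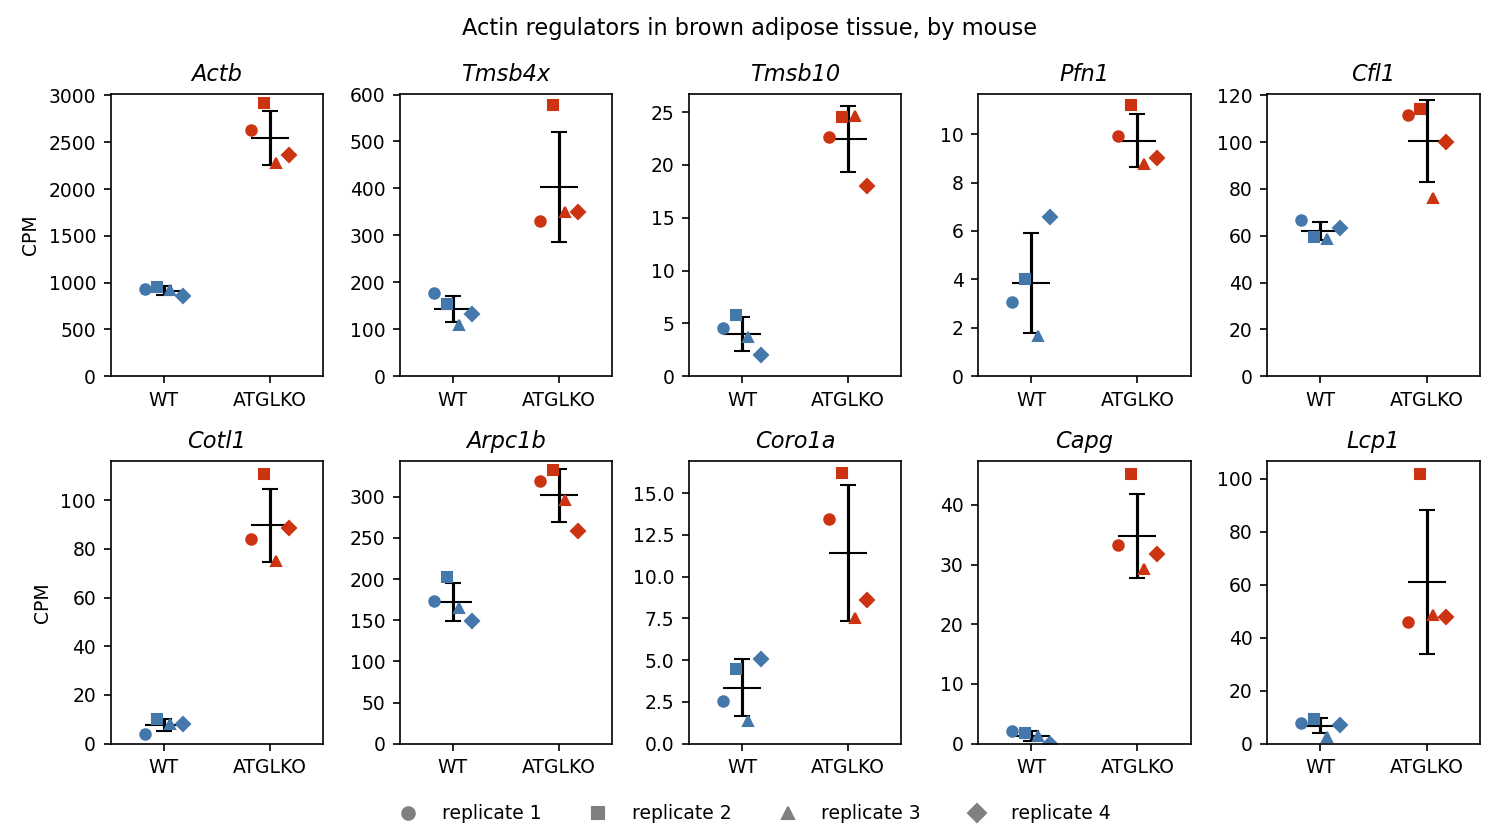
CPM of each of the 10 genes (vertical axis, from 0) in the 4 WT (blue) and 4 ATGLKO (red) mice. Shapes give the replicate number, and black bars the mean ± SD over 4 mice. In each panel the ATGLKO points lie above all WT points, with the smallest gap as a ratio in Cfl1, between 66.8 and 76.1 CPM.

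Actb encodes beta-actin, the filament subunit of non-muscle cells. The gene (ENSMUSG00000029580) lies on the minus strand of chromosome 5 of mm10, at chr5:142903115-142906754. It was at 928, 958, 919 and 852 CPM in WT1 to WT4 and at 2636, 2918, 2282 and 2362 CPM in ATGLKO1 to ATGLKO4. Each genotype was tightly grouped, with a coefficient of variation of 4.88% in WT and 11.3% in ATGLKO mice, and the lowest ATGLKO mouse was 2.38 times the highest WT mouse. The log2FC was 1.48 ± 0.16 (SE), a fold of 2.79. With between 1682 and 9378 counts per mouse, Actb rested on the most reads of the 10.

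Tmsb4x and Tmsb10 encode the small beta-thymosins, which bind actin monomers and keep them out of filaments. Tmsb4x (ENSMUSG00000049775, chrX:167207093-167209315, minus strand) was at 176, 153, 110 and 133 CPM in WT and at 332, 579, 351 and 350 CPM in ATGLKO mice, in replicate order. ATGLKO2 stood apart from the other three, which lay between 332 and 351 CPM. The log2FC was 1.5 ± 0.21 with ATGLKO2 and 1.28 without it. Tmsb10 (ENSMUSG00000079523, chr6:72957347-72958748, minus strand) was at 4.59, 5.82, 3.67 and 2.03 CPM in WT and at 22.6, 24.6, 24.7 and 18 CPM in ATGLKO mice, a log2FC of 2.47 ± 0.28. It rested on 4 to 13 counts per WT mouse. Its sequence is also partly shared: of the 426 windows of 75 bases, the read length, in the last 500 bases of its transcript, 54.2% also occur in transcripts of Gm3788 or Gm9844, so its count is uncertain.

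Pfn1 encodes profilin 1, which loads monomers with nucleotide and hands them to growing filaments. The gene (ENSMUSG00000018293, chr11:70651850-70654644, minus strand) was at 3.06, 4.03, 1.67 and 6.59 CPM in WT and at 9.91, 11.2, 8.78 and 9.01 CPM in ATGLKO mice. The ATGLKO mice lay close together, with a coefficient of variation of 11.3%, against 54% in WT, where only 5 to 13 counts were found per mouse. The log2FC was 1.39 ± 0.35, and it lay between 1.08 and 1.76 when each mouse was left out in turn. These counts are low for a gene that nearly every cell uses. None of the 426 windows of its transcript end was shared with another gene, no other gene's exon overlaps it, and the cause of the low counts was not tested.

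Cfl1 and Cotl1 belong to the cofilin family. Cfl1 encodes cofilin 1, which severs filaments. The gene (ENSMUSG00000056201, chr19:5490455-5495201, plus strand) was at 66.8, 59.6, 58.4 and 63.3 CPM in WT and at 111, 114, 76.1 and 100 CPM in ATGLKO mice. ATGLKO3 was closest to WT, at 1.14 times the highest WT mouse, and the log2FC of 0.70 ± 0.17 was the smallest of the 10. Of its exon bases, 16.5% are also exon of Snx32 on the opposite strand, and without stated strand use reads there cannot be assigned to one gene.

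Cotl1 encodes coactosin-like protein, which binds actin filaments and 5-lipoxygenase, an enzyme of leukotriene synthesis. The gene (ENSMUSG00000031827, chr8:119809222-119840544, minus strand) was at 4.08, 10.3, 8.01 and 8.11 CPM in WT and at 84.2, 111, 75.2 and 88.4 CPM in ATGLKO mice. The lowest ATGLKO mouse was 7.3 times the highest WT mouse. The log2FC was 3.53 ± 0.24, a fold of 11.6, and it stayed between 3.33 and 3.69 when each mouse was left out in turn. Counts were 8 to 24 in WT and 180 to 356 in ATGLKO mice. No other gene's exon overlaps Cotl1, and none of the windows of its transcript end was shared.

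Arpc1b encodes a subunit of the Arp2/3 complex, and the protein is the form that blood cells mainly use. The gene (ENSMUSG00000029622, chr5:145114215-145130705, plus strand) was at 173, 203, 165 and 148 CPM in WT and at 319, 333, 296 and 259 CPM in ATGLKO mice. The genotypes were separated by a small gap, with the lowest ATGLKO mouse at 1.28 times the highest WT mouse, and the log2FC was 0.81 ± 0.16. Of its exon bases, 18.2% are also exon of Pdap1 on the opposite strand.

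Coro1a encodes coronin 1A, a filament-binding protein found mainly in leukocytes, where it coats the cup that engulfs particles. The gene (ENSMUSG00000030707, chr7:126699773-126707787, minus strand) was at 2.55, 4.48, 1.34 and 5.07 CPM in WT and at 13.4, 16.2, 7.52 and 8.58 CPM in ATGLKO mice. ATGLKO1 and ATGLKO2 were higher than ATGLKO3 and ATGLKO4, and the highest was 2.15 times the lowest. The log2FC was 1.83 ± 0.40, the largest standard error of the 10, from 4 to 10 counts per WT mouse.

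Capg encodes a capping protein of the gelsolin family, known from macrophages, that closes the growing end of filaments without cutting them. The gene (ENSMUSG00000056737, chr6:72544391-72562983, plus strand) had 4, 4, 4 and 0 counts in WT and 94, 145, 70 and 74 counts in ATGLKO mice. On the CPM scale it was at 2.04 or below in WT mice, near the floor, and between 29.3 and 45.1 in ATGLKO mice. The log2FC of 4.69 ± 0.37 was the largest of the 10. It rested on 12 counts over all WT mice together, and the lowest ATGLKO mouse was 14.3 times the highest WT mouse.

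Lcp1 encodes L-plastin, the filament-bundling protein of leukocytes. The gene (ENSMUSG00000021998, chr14:75131101-75230842, plus strand) was at 7.65, 9.41, 2.67 and 7.09 CPM in WT and at 46, 102, 48.5 and 47.6 CPM in ATGLKO mice. ATGLKO2 was at 2.21 times the lowest ATGLKO mouse, and the other three nearly coincided. The log2FC was 3.23 ± 0.35 with ATGLKO2 and 2.86 without it.

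Among the 10 genes, the highest ATGLKO mouse was largely shared. ATGLKO2 was the highest ATGLKO mouse for 9 of them, all but Tmsb10, whereas it was the highest for 25% of all tested genes and for 42.6% of the genes called higher. ATGLKO3 was the lowest for 6 of the 10, against 38% of the genes called higher. In WT mice the highest mouse varied more, with WT2 highest for 5 genes, WT1 for 3 and WT4 for 2. ATGLKO2 also had the highest summed macrophage, pan-leukocyte, neutrophil, fibroblast, smooth muscle and skeletal muscle markers of the ATGLKO mice. It had the lowest summed brown adipocyte markers, at 9031 CPM against 10382 to 13414 CPM in the others. The part of each in the order was not tested.

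Close relatives of the 10 genes, which were not in the set, were examined next. Because the 10 were selected on this contrast, nothing is read from any of them standing above a relative, in fold change or ratio, here or below. Of 17 relatives, 14 were tested, and 6 were called higher, or 42.9%, against 13.3% of all tested genes. None was called lower, against 7.63%, with 1 lower at an unadjusted p under 0.05 and 1 in DESeq2. The median log2FC of the relatives was 0.30. In the Arp2/3 complex, Arpc1a, the paralog of Arpc1b, was at 37.5 ± 6.38 CPM in WT and 32.2 ± 2.18 CPM in ATGLKO mice (SD, n = 4 each), a log2FC of -0.21 ± 0.18 (edgeR, adjusted p = 0.457). The ratio of Arpc1b to Arpc1a counts was 3.29 to 5.56 in WT and 8.38 to 10.3 in ATGLKO mice, with no overlap. Among the coronins, Coro1c, a widely expressed form, rose by a log2FC of 1.76 ± 0.22 (edgeR, adjusted p = 3.19e-05), beside 1.83 for Coro1a, whereas Coro1b, at 0.36 ± 0.16, and Coro7, at -0.19 ± 0.29, did not pass the test. The ratio of Coro1a to Coro1c overlapped between genotypes, at 0.0784 to 0.278 in WT and 0.14 to 0.244 in ATGLKO mice.

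Plastin 3 (Pls3), the bundler of non-blood cells, rose by 1.26 ± 0.29 (edgeR, adjusted p = 0.00494). The ratio of Lcp1 to Pls3 was 0.421 to 1.5 in WT and 1.76 to 5.36 in ATGLKO mice, so Lcp1 was the more counted of the pair in every ATGLKO mouse and in only 1 WT mouse, in counts not scaled by transcript length. Among capping proteins, Gsn, which encodes gelsolin and cuts as well as caps, rose from 390 ± 98.3 to 1092 ± 158 CPM (log2FC 1.49 ± 0.21, edgeR, adjusted p = 9.44e-05). The subunits of the general capping protein did not pass the test, at log2FC of -0.17 ± 0.35 for Capza1, -0.11 ± 0.19 for Capza2 and 0.18 ± 0.16 for Capzb.

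In the cofilin family, Cfl2, the muscle form, had a fold change of the opposite sign to Cfl1, at 128 ± 17.9 CPM in WT and 91.4 ± 10 CPM in ATGLKO mice (log2FC -0.49 ± 0.17, edgeR, adjusted p = 0.0503). It missed the threshold here and was called lower in 6 of 17 alternatives. Dstn, which encodes the related destrin, was at 0.24 ± 0.21 (edgeR, adjusted p = 0.476). Dbnl and Gmfb, of the wider family that shares the cofilin fold, rose by 0.83 ± 0.22 and 0.60 ± 0.19 (edgeR, adjusted p = 0.0139 and 0.033). The call of Gmfb was lost when WT1, WT3, ATGLKO1, ATGLKO2 or ATGLKO4 was left out (edgeR, adjusted p up to 0.107). The smooth muscle actin gene Acta2 rose by 1.86 ± 0.33 (edgeR, adjusted p = 0.000868). Actg1, which encodes the gamma-actin of non-muscle cells, had only 0 to 3 counts per mouse, and Pfn2 and Gmfg also had too few counts to test. So low a count of Actg1 says little of its level, since the gene is used by nearly every cell, and its cause was not tested.

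**Figure D2:**
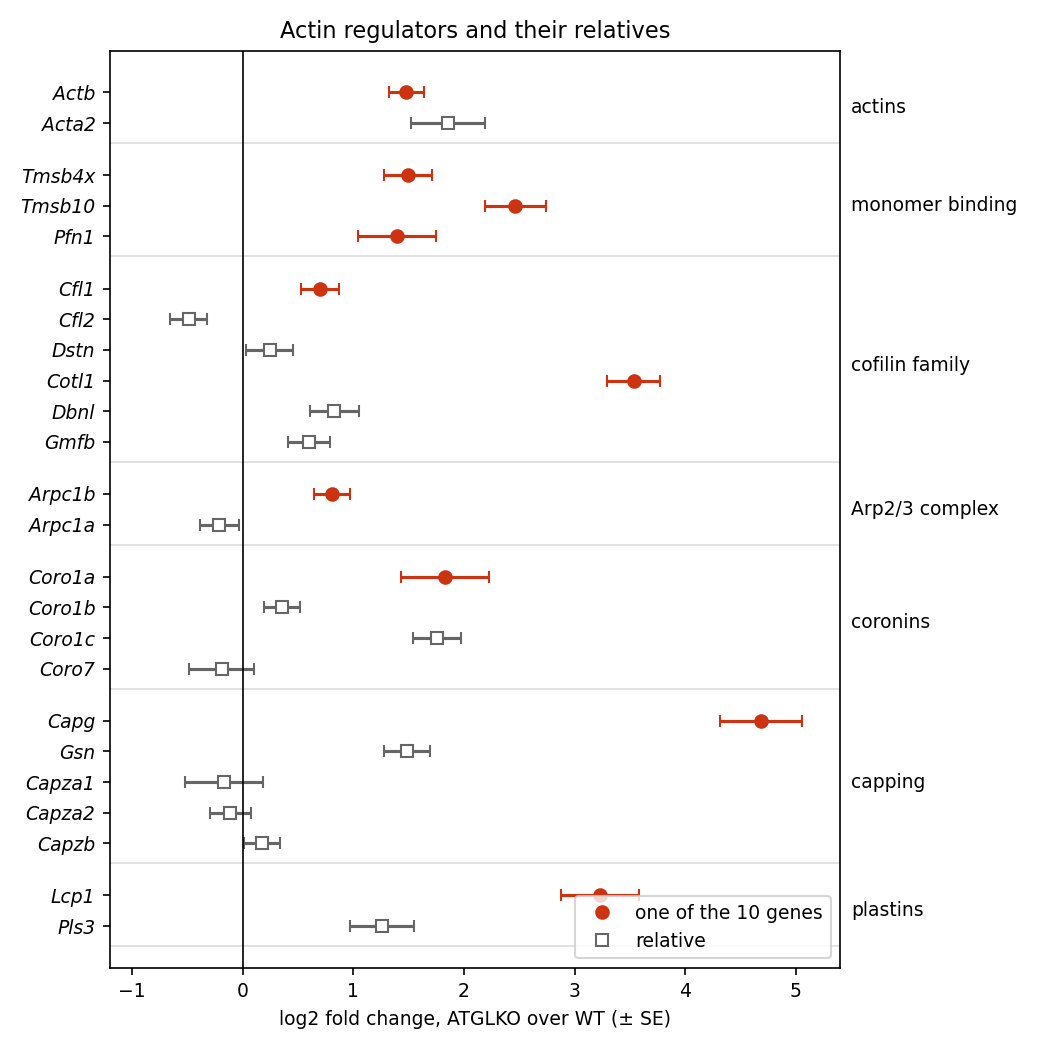
Log2 fold change of ATGLKO over WT (horizontal axis), with its standard error, for the 10 genes (red circles) and their 14 tested relatives (open squares), grouped by family. Within each family with a relative shown, the red circles lie to the right of the open squares except in the actins, where Acta2 is at 1.86 and Actb at 1.48, and the cofilin family, where Cfl1 at 0.70 lies below Dbnl at 0.83. The 10 genes were selected on this contrast, so nothing is read from their place beside the relatives.

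Across 153 other genes of actin control, listed by role, 106 were tested, of which 45 were called higher and 2 lower. The share called higher was 42.5%, against 13.3% of all tested genes. Without 24 regulators known from blood cells, 30 of 89 tested genes were called higher, or 33.7%. The lists were chosen with earlier results of these data known. Some of their genes, such as Actn1 at 5 to 9 counts per WT mouse, passed the filter only through the ATGLKO mice. Nothing is therefore read from either share. In the Arp2/3 complex, the other 8 tested subunits had a median log2FC of -0.02, and only Arpc4 was called, at 0.62 ± 0.19 (edgeR, adjusted p = 0.028). That call was lost without WT1, WT2, WT4, ATGLKO1, ATGLKO2 or ATGLKO3 (edgeR, adjusted p up to 0.0751). Of the other actin genes, 2 were tested, and Acta2 was called higher and the skeletal muscle actin gene Acta1, at 0.53 ± 0.92, was not (edgeR, adjusted p = 0.741). None of 3 tested monomer-binding genes was called by edgeR or DESeq2, and 1 had an unadjusted p under 0.05 in edgeR. Of the 10 tested genes of the cofilin family and its control, 3 were called higher, Dbnl, Gmfb and the cofilin kinase gene Limk2 (0.78 ± 0.26, edgeR, adjusted p = 0.0448), and Coro1c was the only one of 4 tested coronins. The call of Limk2 was lost when any of the 8 mice was left out (edgeR, adjusted p of 0.0543 to 0.139).

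Among 20 tested activators of the Arp2/3 complex, 4 were called higher and 1 lower. Nckap1l, the blood-cell subunit of the WAVE complex, rose by 3.23 ± 0.38 (edgeR, adjusted p = 2.25e-05) and Hcls1, the blood-cell form of cortactin, by 1.85 ± 0.34 (edgeR, adjusted p = 0.00105). Whamm fell by 0.68 on the log2 scale (edgeR, adjusted p = 0.0279). Of 11 tested formins, Ena/VASP genes and other nucleators, Evl rose by 2.29 ± 0.39 (edgeR, adjusted p = 0.000547) and Vasp by 0.69 ± 0.23 (edgeR, adjusted p = 0.0401), and Spire1 fell by 0.73 (edgeR, adjusted p = 0.0428). The call of Whamm was lost without WT1, WT4, ATGLKO1, ATGLKO2 or ATGLKO3 (edgeR, adjusted p up to 0.0857), and that of Spire1 without WT1, WT2, WT4, ATGLKO1, ATGLKO3 or ATGLKO4 (edgeR, adjusted p up to 0.122). The call of Vasp was lost without WT1, WT3, WT4, ATGLKO1, ATGLKO2 or ATGLKO3 (edgeR, adjusted p up to 0.113).

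Bundling and crosslinking genes were called most often of the roles not defined by blood cells. Of 13 tested genes, 11 were called higher, against 13.3% of all tested genes, with a median log2FC of 1.11. Aif1, 1 of the 11, is also among the regulators known from blood cells. Actn1 had 5 to 9 counts per WT mouse and passed the filter only through the ATGLKO mice, so nothing is read from this rank. Tagln2, which encodes transgelin 2, rose from 24.1 ± 4.63 to 114 ± 20.7 CPM (SD, n = 4 each; log2FC 2.24 ± 0.20, edgeR, adjusted p = 1.58e-06). Actn1, for alpha-actinin 1, rose by 2.79 ± 0.29 (edgeR, adjusted p = 8.15e-06), and Flna, for filamin A, by 2.32 ± 0.26 (edgeR, adjusted p = 1.38e-05). Of 10 tested capping and severing genes, 4 were called higher, among them Gsn, Add1, for adducin 1 (0.83 ± 0.18, edgeR, adjusted p = 0.00424), and Svil, for supervillin (1.06 ± 0.28, edgeR, adjusted p = 0.0135). The call of Svil was lost without WT3 or ATGLKO4 (edgeR, adjusted p up to 0.0554).

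The list of regulators known from blood cells had 17 tested genes of 24. Of these 17, 15 were called higher, against 13.3% of all tested genes, with a median log2FC of 2.13. Some, such as Myo1f at 3 to 5 counts per WT mouse, passed the filter only through the ATGLKO mice. A gene so low in WT could be tested only where it was high in ATGLKO, so nothing is read from this share. Myo1f, a myosin of myeloid cells, rose by 3.63 ± 0.37 (edgeR, adjusted p = 5.1e-06) and Fyb, an adaptor of leukocyte adhesion, by 2.17 ± 0.25 (edgeR, adjusted p = 1.76e-05).

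**Figure D3:**
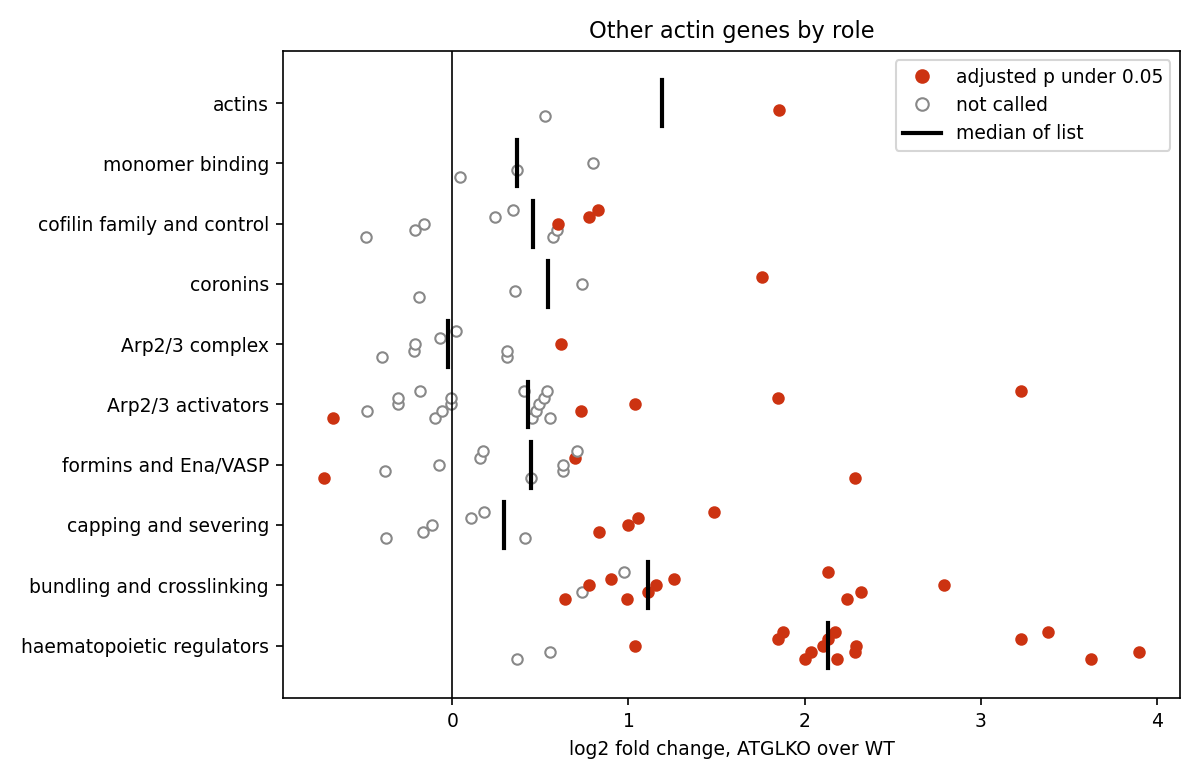
Log2 fold change of ATGLKO over WT (horizontal axis) of the tested genes of 10 role lists, with the 10 genes of the set left out and genes of several lists shown in each. Filled red points passed an adjusted p under 0.05, open points did not, and black bars are list medians, which run from -0.02 in the Arp2/3 complex to 2.13 in the regulators known from blood cells.

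Markers of cell types were compared beside the 10 genes. All 8 pan-leukocyte markers were called higher, as were 8 of 9 tested macrophage markers, against 13.3% of all tested genes. Their median log2FC were 3.32 and 2.83. Some of these markers, such as Itgb2 at 0 or 1 counts per WT mouse, passed the filter only through the ATGLKO mice. The pan-leukocyte markers summed to 23.7 to 47.9 CPM in WT and 279 to 496 CPM in ATGLKO mice, and the macrophage markers to 132 to 152 and 717 to 1116 CPM. Ptprc, which encodes the leukocyte antigen CD45, rose by 3 ± 0.24 (edgeR, adjusted p = 7.62e-07). No marker of T cells, B cells, NK cells or neutrophils had enough counts to be tested in edgeR, and DESeq2, which filters otherwise, called 1 T cell marker higher. No gene of these 4 lists exceeded 15 counts in any mouse. T cell markers summed to 3.01 to 8.11 CPM in WT and 6.87 to 17 CPM in ATGLKO mice. NK cell markers summed to 1.34 to 8.51 and 5.85 to 13.1 CPM. The sums overlapped between genotypes for all 4 lists. Cd2, of the T cell list, and Klrb1c, of the NK cell list, were higher in every ATGLKO mouse than in every WT mouse. They had 5 and 6 counts over all WT mice and 36 and 31 over all ATGLKO mice. Every other gene of these lists overlapped.

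All 6 fibroblast markers were called higher as well, with a median log2FC of 2.18 and sums of 340 to 534 CPM in WT and 1068 to 2163 CPM in ATGLKO mice. Of the endothelial markers 1 of 6 was called higher, of the smooth muscle markers 1 of 5 tested, Acta2, and of the 6 skeletal muscle and 5 erythroid markers none, by edgeR or DESeq2, with 0 at an unadjusted p under 0.05. The endothelial markers summed to 204 to 243 CPM in WT and 258 to 309 CPM in ATGLKO mice, without overlap, and all 6 had a positive log2FC. Of the 9 brown adipocyte markers, 4 were called lower and 1 higher. Leukocyte and fibroblast markers thus moved with the 10 genes between genotypes, and the endothelial sum did so to a smaller extent. The part of any of these cell types in each gene's difference was not tested.

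**Figure D4:**
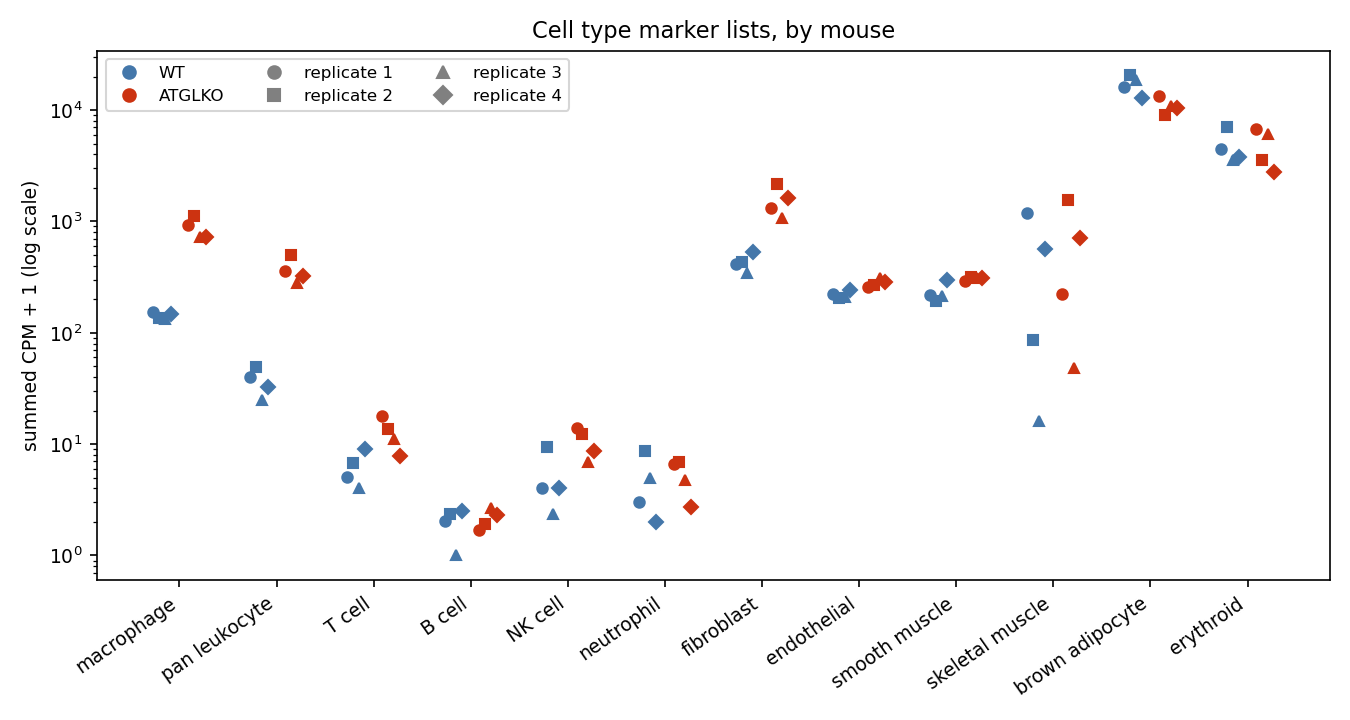
Summed CPM plus 1 (log scale, vertical axis) of 12 cell type marker lists in each WT (blue) and ATGLKO (red) mouse, with shapes for the replicate number. The macrophage, pan-leukocyte and fibroblast lists separate the genotypes widely, the T cell, B cell, NK cell and neutrophil lists stay at or below 17 CPM, and skeletal muscle spreads from 15 to 1552 CPM over the mice of both genotypes.

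Set against the summed pan-leukocyte markers of the same mouse, the 10 genes showed 3 patterns, given as ratios of CPM without a test. The sum itself rose 10.3-fold between the genotype means, so a gene that rose clearly less, or not at all, has a lower ratio in ATGLKO mice. The share of tested genes with a lower ratio was not computed, and nothing about the 10 genes is read from the patterns. The sum is not an even measure of all leukocytes, since Tyrobp, Fcer1g and Spi1 are not expressed by every leukocyte. These 3 rose by folds of 15.8, 10.7 and 11.4, against 8 for Ptprc, and the 8 markers ranged from 7.44 for Cd53 to 40.3 for Itgb2. The ratios of Cotl1 and Lcp1 overlapped between genotypes. The ratio for Cotl1 was 0.105 to 0.338 in WT and 0.223 to 0.275 in ATGLKO mice, and for Lcp1 it was 0.113 to 0.226 and 0.128 to 0.205. For Capg it was higher in every ATGLKO mouse, at 0 to 0.0563 in WT and 0.091 to 0.105 in ATGLKO mice. For Actb, Tmsb4x, Pfn1, Cfl1, Arpc1b and Coro1a it was lower in every ATGLKO mouse than in every WT mouse. For Actb the ratio was 20 to 38.8 in WT and 5.89 to 8.18 in ATGLKO mice, and for Cfl1 the WT mean was 6.62 times the ATGLKO mean. Coro1a, although known mainly from leukocytes, was among these, at 0.0563 to 0.161 in WT and 0.0267 to 0.0375 in ATGLKO mice. Tmsb10 had overlapping ratios too, of 0.0645 to 0.155 and 0.0496 to 0.0883. The WT ratios of Coro1a, Capg, Pfn1 and Tmsb10 rest on 13 counts or fewer per mouse.

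**Figure D5:**
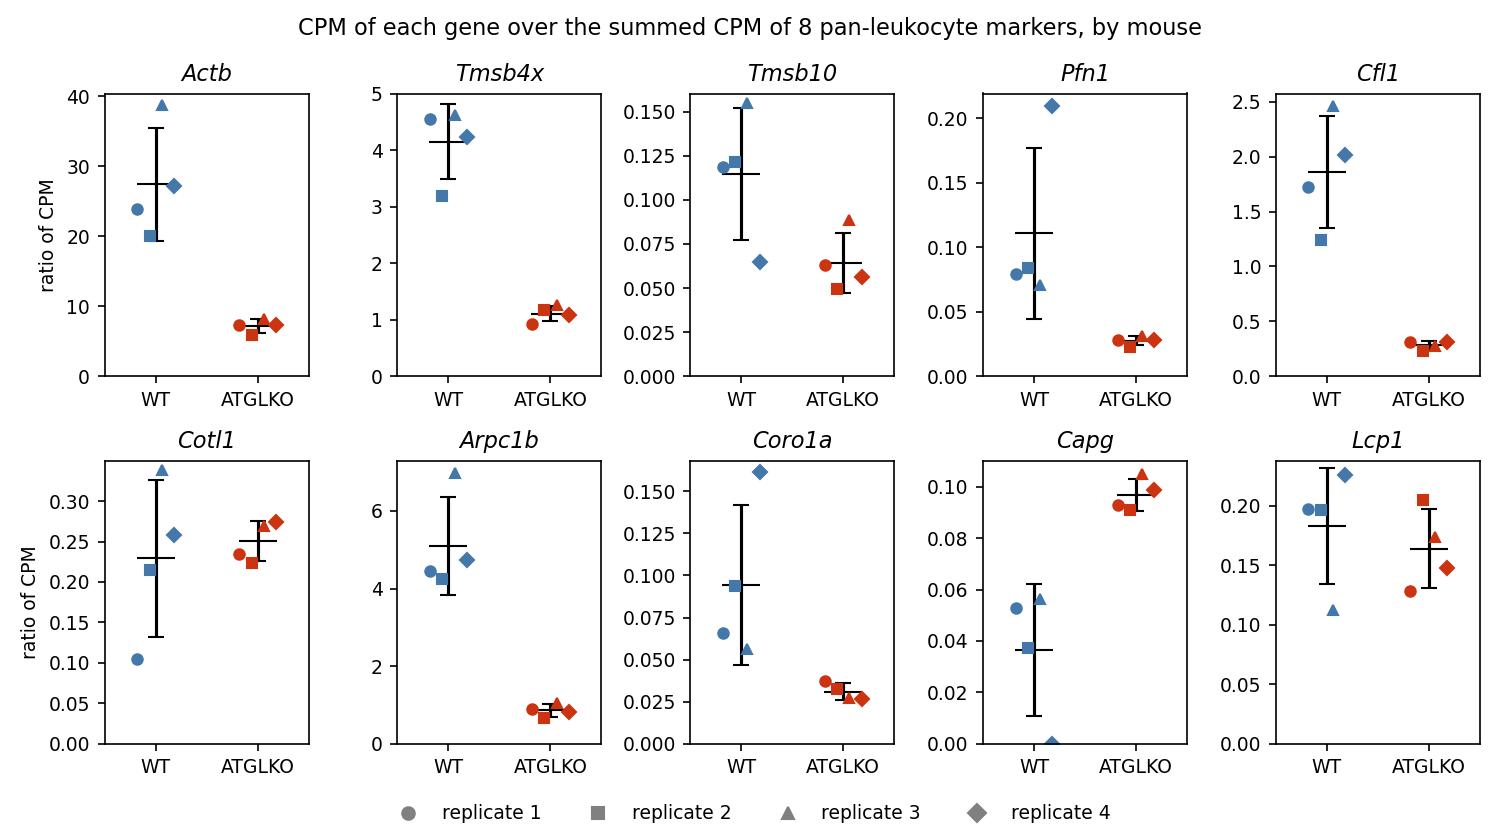
Ratio of each gene's CPM to the summed CPM of 8 pan-leukocyte markers in the same mouse (vertical axis, from 0), for WT (blue) and ATGLKO (red) mice, with mean ± SD over 4 mice as black bars. Cotl1, Lcp1 and Tmsb10 overlap between genotypes, Capg is higher in ATGLKO, and the other 6 genes are lower. The marker sum itself rose 10.3-fold between the genotype means.

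The genes whose profile was most like that of Cotl1 were found among 6427 other tested genes with a mean of at least 10 CPM, by the root mean square difference of mean-centred log2 CPM over the 8 mice. Because it runs over the mice of both genotypes, this measure largely follows the size of the genotype difference, on which Cotl1 was selected. It is not a measure of shared variation within a genotype. The closest genes were Ms4a7, Ccl6, Cd300ld, Fcgr3 and Fam124a, at differences of 0.22, 0.27, 0.32, 0.32 and 0.34. Ms4a7 is a membrane gene of macrophages, Ccl6 a chemokine gene of myeloid cells, and Cd300ld and Fcgr3 encode myeloid surface receptors. Ccl6, the most counted of them, was at 10 ± 3.68 CPM in WT and 143 ± 45.6 CPM in ATGLKO mice (SD, n = 4 each). Of the other members of the set, Lcp1 came closest to Cotl1, at 0.61 and rank 50, then Tmsb10 at rank 88 and Capg at rank 99, and Cfl1 was farthest at rank 710. Coro1a and Pfn1 were below 10 CPM and were not ranked.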

How the data were processed

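Bulk RNA-seq libraries of 4 WT and 4 ATGLKO mice were analysed, grouped by the sample labels. Per the study's methods, the authors used bbduk for trimming, STAR for alignment on mm10 and HTseq-counts for counting per gene. The submitters' processing notes instead name Trimmomatic, HISAT2 and DESeq2. The deposited counts are raw whole numbers, with strand use and annotation release not given in the sources used here. The authors also deposited log2 values, each the log2 of a count over a factor per mouse, plus 1, which were used for 1 alternative. Reads that map to several places could not be recovered from counts.

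Counts were filtered with filterByExpr (minimum count 10), scaled by TMM and tested for genotype with the quasi-likelihood test of edgeR 4.0.16 (R 4.3.3), and p-values were adjusted over 8930 genes by Benjamini and Hochberg's method. Standard errors are the size of the log2 fold change over the square root of F, and log2 CPM used a prior count of 2. Alternatives used DESeq2 1.42.0, limma 3.58.1, other scaling, other filters, a replicate block and each mouse left out. The test was checked on simulated counts. The 10 genes, the role and marker lists and the motifs were chosen with earlier results of these data known. Genes named beside the 10 were their relatives, up to 3 called genes per role list by smallest adjusted p, and the 5 most like Cotl1. Marker genes came from the marker lists. The result of 1 role list is not reported here on its own. Symbols, positions and exon overlaps came from GENCODE on mm10, which named 30934 of 31053 identifiers, and shared windows counted genes whose exons do not overlap. Chi-square over its degrees of freedom was 4.69 to 23.2 between mice of a genotype, so no library was a duplicate. Depth was 2017697 to 3115956 counts per mouse.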

Additional observations from a re-analysis of the deposited data

Results flagged for a closer look

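In 10 of 96 groups of 4 mice, 2 per named gene, 1 mouse stood apart from the other three, its gap to the nearest of them, as a share of the group's range on the log2 CPM scale, passing the critical value of Dixon's test for 4. Chance alone flags about 1 group in 20, or 4.8 groups here. ATGLKO2 was the mouse that stood apart in 5 of the 10, always as the highest, for Lcp1 (gap share 0.934), Tmsb4x (0.900), Nckap1l (0.884), Capzb (0.902) and Arpc1a (0.898). For Lcp1 it was at 6.68 on the log2 CPM scale against 5.55 to 5.62 in the others, and for Tmsb4x at 9.18 against 8.38 to 8.46. The other ATGLKO mice that stood apart were ATGLKO3 for Pls3 (0.881, highest) and ATGLKO4 for Vasp (0.885, lowest). Among WT mice they were WT2 for Dstn (0.85, lowest) and Nckap1l (0.971, highest) and WT3 for Evl (0.883, lowest).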

How the results depend on the processing

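All 10 genes were called higher in 16 of 17 alternatives, and the lowest and highest count was 10 when each mouse was left out. Calls of the 10 in any alternative follow from how the genes were chosen, and nothing is read from them. Requiring 10 counts in every mouse left 4 of the 10 genes to test, all called. It also lowered the regulators known from blood cells called higher from 15 to 1, and all calls to 746 higher and 449 lower. None of the 10 was called lower in any alternative. For Actb the log2 fold change moved from 1.48 to 1.62 with total counts only, beyond its replicate SD, and that scaling moved the median over all genes from -0.01 to 0.13 and lowered the lower calls to 404. Genes of the role lists called lower went from 2 to 0 with total counts only and to 0 with 10 counts in every mouse, and were 0 to 2 without each mouse. Role-list genes called higher were 34 to 45 and regulators known from blood cells 13 to 17 without each mouse. Without each mouse, all lower calls ranged from 400, without ATGLKO2, to 851, and all higher calls from 945 to 1304, and over the other alternatives they ranged from 404 to 883 and from 746 to 1630. Capza1, Capza2 and Coro7 changed sign near 0: without each mouse, Capza1 ranged from -0.407 to 0.0462, Capza2 from -0.197 to 0.0236 and Coro7 from -0.384 to 0.00014, and Capza2 was at 0.0315 with total counts only. Calls of Limk2, Vasp, Spire1, Whamm, Arpc4, Gmfb and Svil were lost in 13, 10, 9, 7, 6, 5 and 2 of 17 alternatives, and Cfl2 was called lower in 6. The replicate numbers were taken only to name the mice. Deviations of same-numbered mice correlated at -0.2 to 0.3, and 1 of 4 WT and 2 of 4 ATGLKO mice correlated best with their own number. These values, from 4 mice per genotype, cannot tell whether mice were handled in pairs or batches. With the replicate number as a block, 10 of the 10 genes, 41 role-list genes and 15 regulators known from blood cells were called higher, and 2 role-list genes lower, and Limk2 and Vasp lost their calls. The causes of these changes were not tested, apart from the genes that the stricter filter removed. Depth limits Capg, Coro1a, Pfn1 and Tmsb10, whose WT mice had 13 counts or fewer.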
